A study of Homo sapiens with 22 samples.

Results

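A673-only HOXD13 sites without any mark are 1874 peaks of the A673 HOXD13 list, of 9259 HOXD13 peaks called in both lines and 7160 in A673. They lay on chromosomes 1 to 22 and X, over 1 kb from every boundary of a protein-coding gene. They overlapped no CHLA10 HOXD13 peak, and none of the 16 histone mark lists of A673 and CHLA10 had a peak over them. A673 and CHLA10 are established lines of Ewing sarcoma, a tumour of bone and soft tissue. HOXD13 was mapped by CUT&RUN, in which an antibody directs micrococcal nuclease to chromatin and the released fragments are sequenced, in 1 library of A673 and 1 of CHLA10, each with a rabbit antibody at 1:20. H3K4me1, H3K4me3 and H3K27me3 (antibodies at 1:100) and H3K27ac (1:50) were each mapped in 2 libraries per line, from cells whose titles carry shNS, a label the HOXD13 libraries lack. The lists hold called peaks and no reads, so the depth is unknown. They keep only part of the numbered peaks. Thus "no mark" means that the deposited mark lists hold no peak over a site. Likewise, "A673-only" means that the deposited CHLA10 HOXD13 list holds none. That list keeps 1.00% of its highest peak number, against 9.94% for the A673 HOXD13 list.

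HOXD13 is a homeodomain transcription factor of the posterior HOX group, known from the patterning of limbs and the urogenital tract. It binds AT-rich sequence, and many HOX proteins bind with partners of the MEIS and PBX families. H3K4me1 and H3K27ac lie on nucleosomes beside active or primed enhancers, H3K4me3 at promoters, and H3K27me3 over chromatin held by Polycomb.

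Of the 7160 A673 peaks, 6643 overlapped no CHLA10 peak, and 6246 of those were distal, that is over 1 kb from a gene boundary. No mark covered 1874 of the distal peaks, or 30.0% (exact Clopper-Pearson 95% interval 28.9 to 31.2, which covers counting error only, as do all intervals given). The sites were selected on these overlaps of called peaks, so the share is a description. The 3 sites nearest to the boundary limit lay 1009, 1032 and 1039 bp from SPRY2, RFX7 and EIF3G, with fold enrichments of 11.04, 9.73 and 6.47. The 3 unmarked A673-only peaks just short of it lay 939, 901 and 822 bp from NOP9, PLCB4 and KIFC3, with fold enrichments of 5.32, 13.5 and 8.93. Sites near LOC124902536, PTPRA and GSG1 lay 1 bp from a mark peak and had fold enrichments of 8.73, 10.54 and 3.46. Peaks near MBOAT4, MPDZ and STARD13 shared 1, 2 and 2 bp with one and had 8.11, 7.36 and 15.4.

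In 5 places an unmarked site overlapped a promoter window of the RefSeq annotation (build GRCh38.p14), which spans 250 bases before to 50 after a transcript start. In 4 of these the overlap was long, and those windows are shown because they are the sites whose sequence could be read. Each is given 5′ to 3′ on the strand of its transcript, with the bases inside the HOXD13 peak in capitals.
PDE4D: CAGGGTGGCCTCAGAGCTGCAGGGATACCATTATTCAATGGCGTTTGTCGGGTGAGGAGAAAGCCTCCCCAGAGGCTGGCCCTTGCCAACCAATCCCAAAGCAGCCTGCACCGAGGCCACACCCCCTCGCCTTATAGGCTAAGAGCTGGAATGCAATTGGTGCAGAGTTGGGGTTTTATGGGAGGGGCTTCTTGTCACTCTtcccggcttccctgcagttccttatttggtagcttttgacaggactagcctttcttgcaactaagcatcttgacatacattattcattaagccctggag
LINC02722: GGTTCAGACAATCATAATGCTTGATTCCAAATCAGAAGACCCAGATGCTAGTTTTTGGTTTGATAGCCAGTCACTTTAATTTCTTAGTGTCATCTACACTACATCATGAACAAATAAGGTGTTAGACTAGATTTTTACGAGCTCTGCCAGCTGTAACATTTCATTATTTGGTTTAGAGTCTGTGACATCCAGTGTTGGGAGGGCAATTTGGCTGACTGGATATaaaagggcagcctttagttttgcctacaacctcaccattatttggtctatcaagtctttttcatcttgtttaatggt
LOC105372904: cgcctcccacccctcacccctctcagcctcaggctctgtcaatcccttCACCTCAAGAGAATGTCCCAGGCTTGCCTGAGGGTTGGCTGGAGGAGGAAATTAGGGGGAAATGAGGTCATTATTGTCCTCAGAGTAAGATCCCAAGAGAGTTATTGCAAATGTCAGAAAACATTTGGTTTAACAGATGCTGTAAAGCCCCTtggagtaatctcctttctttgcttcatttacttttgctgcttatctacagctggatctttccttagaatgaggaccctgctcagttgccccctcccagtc
LOC124900845: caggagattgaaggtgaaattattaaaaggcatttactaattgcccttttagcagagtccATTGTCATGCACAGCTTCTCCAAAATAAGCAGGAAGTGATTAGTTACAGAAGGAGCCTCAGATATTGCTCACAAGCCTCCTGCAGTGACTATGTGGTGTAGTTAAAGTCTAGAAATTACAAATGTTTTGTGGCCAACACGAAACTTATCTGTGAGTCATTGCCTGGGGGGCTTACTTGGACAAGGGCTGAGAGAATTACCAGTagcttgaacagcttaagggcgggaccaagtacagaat
PDE4D encodes a phosphodiesterase that breaks down cAMP, and the other 3 are long non-coding RNA genes. The PDE4D window (chr5:58999849-59000148, minus strand) lay inside the gene, at a transcript start 30.9 kb from the nearest gene boundary. Its site had a fold enrichment of 11.2, and 201 of its 227 bases lay in the window. LINC02722 (chr11:33804518-33804817, plus strand) had a site with a fold enrichment of 11.2, 29.9 kb from FBXO3. At LOC105372904 (chr1:211715951-211716250, minus strand) all 152 bases of a site with a fold enrichment of 14.7 lay in the window. At LOC124900845 (chr4:32140729-32141028, minus strand), 994 kb from PCDH7, the site had a fold enrichment of 8.79. At the fifth window, of LINC02168 on chromosome 16, the site shared 1 base.

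Both strands of the 5 windows were searched for CAATAAA, a core sequence known for HOX13 proteins, and for its variant with the letters TCGTAAA. LINC02722 held TCGTAAA on the minus strand, at position 134 counted from the 5′ end of the printed window and inside the HOXD13 peak. The other 4 windows held neither. Over all 34961 promoter windows, 4.52% held at least one of the pair and 0.541% held TCGTAAA. G and C made up 58.7% of the bases at the median of all windows. In each of the 5 windows they made up less, at most 52.7% (PDE4D), and least at LINC02722. The shares of all windows with a motif were not adjusted for base content, so they are no matched background for the 5. A match to TGANTCA, the core of AP-1 sites, which reads the same on both strands, occurred inside the peak at LOC124900845 (position 212), against 7.68% of all windows. TGACAG, a core of MEIS sites, occurred at LOC105372904 and PDE4D outside the peak, against 15.8% of all windows. TAATTA, a general homeodomain core, occurred in none of the 5 windows, against 4.85% of all windows. A pair of tandem units of GGAA, the repeat bound by EWS-FLI1, also occurred in none of the 5, against 3.67% of all windows. Of unmarked sites, 0.267% (5 of 1874, 0.0867 to 0.622) overlapped a promoter window, against 1.51% of distal A673-only peaks with a mark (66 of 4372, 1.17 to 1.92). Both classes were set by the mark lists, which include H3K4me3, a mark of promoters. These 2 shares are therefore a description.

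HOXD13 enrichment at unmarked sites was close to that at marked ones. The fold enrichment is the authors' ratio of a peak over the caller's background. Its median was 9.31 at unmarked sites (quartiles 6.65 and 13.5, n = 1874) and 9.19 at distal A673-only peaks with any mark (6.28 and 13.3, n = 4372). The exact 95% intervals of the medians, 9.01 to 9.77 and 9.01 to 9.29, overlapped. The median −log10 q was 14.5 (9.15 and 22.3) at unmarked sites and 14.3 (8.66 and 23.2) at marked ones. The median length was 191 bp in both. Peaks of 1 library are not replicates, so no test was made between classes of peaks. There is also no second HOXD13 library to show the spread.

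Among the marked classes the medians spread little. Fold enrichment was 9.77 at the 1270 peaks with H3K4me1 alone, 8.88 at the 1500 with A673 H3K27ac, and 9.01 at the 1052 with H3K27ac in CHLA10 but not in A673. It was 9.60 at the 550 with other marks. The unmarked sites lay inside this range. The share of distal A673-only peaks without a mark was similar from weak to strong peaks. In 4 groups of about equal size by −log10 q, it was 28.2% (26.0 to 30.5) in the lowest group, 31.3% and 32.4% in the middle groups, and 28.1% (25.9 to 30.4) in the highest group. Among the 63 peaks in the top 1%, 14 had no mark (22.2%, 12.7 to 34.5).

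**Figure D1:**
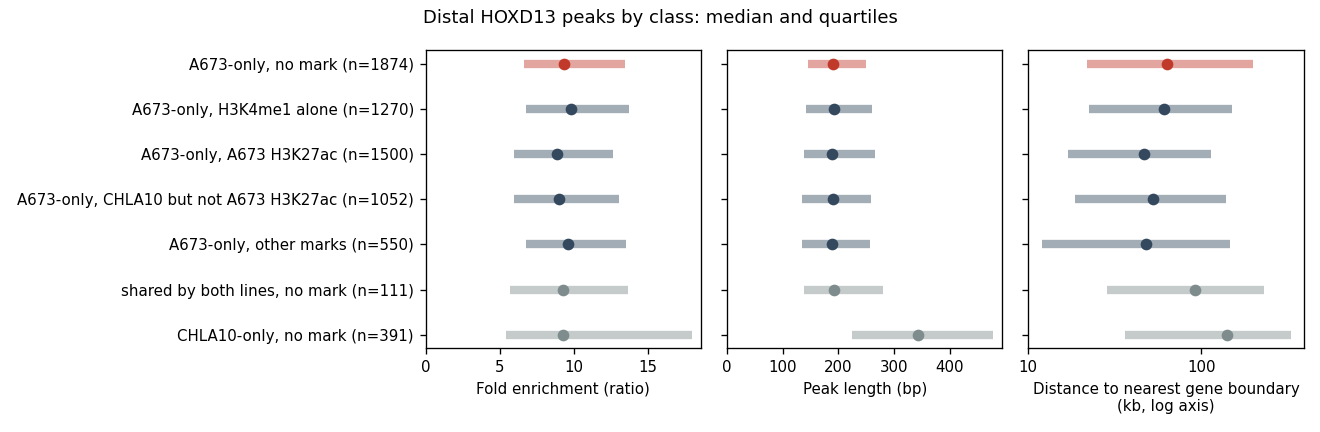
Median (point) and quartiles (bar) of the fold enrichment (a ratio), the length (bp) and the distance to the nearest protein-coding gene boundary (kb, log axis) of distal HOXD13 peaks, with the unmarked A673-only sites in the top row. Fold enrichment and length of the unmarked sites (medians 9.31 and 191 bp) lie within the spread of the marked A673-only classes. Peaks of the CHLA10 list are longer, 343 bp at the median without a mark and 355.5 bp with one (the last not drawn).

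Of the 15 sites with the highest −log10 q, 5 lay inside a protein-coding gene and 5 lay over 100 kb from any gene boundary. The first was inside ARHGAP26, which encodes a GTPase-activating protein (chr5:143128574-143129133, −log10 q 144, fold enrichment 57.7), and had rank 10 in the whole A673 list. A CHLA10 HOXD13 peak lay 41.1 kb from it and an A673 H3K4me1 peak 1.13 kb from it. The next lay 701 kb from ANKRD30A (chr10:36423797-36424294, −log10 q 143, fold enrichment 39.6), and a CHLA10 H3K4me1 peak began 28 bp from it. A site 312 kb from CCDC196 (chr14:66174558-66174806) had a −log10 q of 101 and a fold enrichment of 38.5.

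Next came sites near STMN4, which encodes a stathmin that destabilises microtubules (−log10 q 83.6, 30.2 kb away), and MANEA, a mannosidase gene of the Golgi (79.4, 896 kb away). The MANEA site was the one among the top 15 with its nearest mark peak over 10 kb away (22.1 kb). Sites near GMNC, a gene of multiciliated cells (−log10 q 77.8), and inside ARHGAP15, another gene of a GTPase-activating protein (74.6), followed. PCDH18, a protocadherin gene, lay 65.7 kb from a site with a −log10 q of 73.2. The transcription factor gene ZBTB38 (72.2), BTBD8 (69.9) and ERC2, a gene of the presynaptic active zone (65.8), held sites within them. BTBD3 (68.9), HSPA9, which encodes a mitochondrial chaperone (68.4), ZMAT4 (68.4) and C5orf58 (66.9) were the nearest genes of the rest. Of the 15 sites, 9 had a mark peak within 1 kb and 5 had another A673 HOXD13 peak within 2 kb.

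Few unmarked sites lay over 10 kb from a peak of the mark lists. The distances were not set against those of other genomic positions, and single mark lists hold 17909 to 106770 peaks. The nearest peak of any of the 16 mark lists lay at a median of 1.15 kb (quartiles 0.250 and 4.14 kb). It lay within 1 kb at 891 sites (47.5%, 45.3 to 49.8), over 1 to 10 kb away at 807 (43.1%) and over 10 kb away at 176 (9.39%, 8.11 to 10.8). Over 50 kb lay 14 sites and over 100 kb lay 5. Those 5 were nearest to ZNF33B, ANKRD30B, ZNF254, ZNF728 and NCAM2, names given after their values were seen. Their fold enrichments were 4.86, 8.11, 8.46, 9.01 and 17.1. The site nearest to ZNF33B, on chromosome 10, lay 1359 kb from any mark peak and 1781 kb from the gene boundary. Reads were 25 bp at each end, and the repeat content of these 5 sites was not examined.

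The nearest mark peak was most often H3K4me1 of A673. Replicate 1 of that mark gave it at 632 sites (33.7%) and replicate 2 at 225 (12.01%). Next were A673 H3K27ac with 171 and 169 sites and CHLA10 H3K27ac with 137 and 93. H3K4me3 of either line gave it at 17 to 30 sites per library. A673 H3K4me1 replicate 1 was also the longest list, with 106770 peaks, against 17909 to 47393 in the other 15. A mark peak within 1 kb came from A673 at 752 sites (40.1%, 37.9 to 42.4) and from CHLA10 at 359 (19.2%, 17.4 to 21.0), with 220 sites in both counts. Peaks of the same list within 1 kb on both sides of a site were uncommon. A673 H3K4me1 had them at 53 sites in replicate 1 and 15 in replicate 2, and A673 H3K27ac at 25 and 17.

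**Figure D2:**
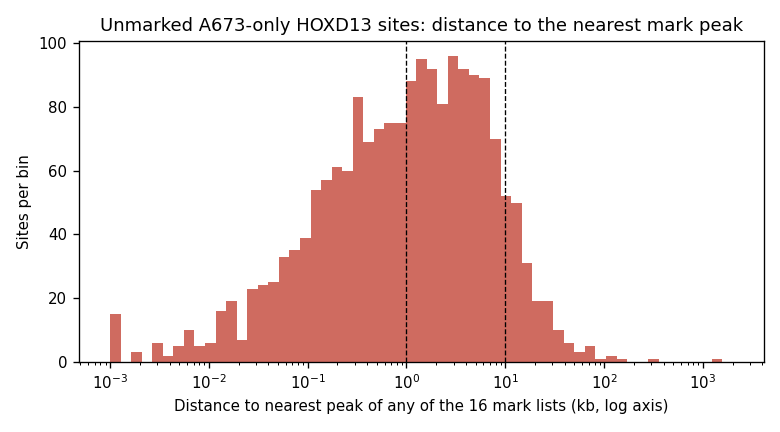
Number of unmarked A673-only HOXD13 sites (vertical axis) by the distance to the nearest peak of any of the 16 mark lists (kb, log axis), with dashed lines at 1 and 10 kb. Of 1874 sites, 891 lie within 1 kb, 807 between the lines and 176 over 10 kb away.

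The surroundings, from over 1 to 10 kb from the site, held fewer active-mark peaks than those of marked sites. An A673 H3K4me1 peak lay there at 59.2% (56.9 to 61.4) and 31.9% (29.8 to 34.0) of unmarked sites in replicates 1 and 2, against 70.1% (68.7 to 71.4) and 42.0% (40.5 to 43.5) of marked sites. For A673 H3K27ac the shares were 27.1% and 30.7% of unmarked sites, against 37.1% and 38.04% of marked sites. For CHLA10 H3K27ac they were 24.9% and 17.2% of unmarked sites, against 33.7% and 24.1% of marked sites. The intervals of the 2 classes did not overlap in any of these 6 libraries. They also did not overlap in CHLA10 H3K4me1 replicate 1, with 18.3% (16.6 to 20.1) of unmarked sites against 21.8% (20.6 to 23.1) of marked sites. The same held in A673 H3K4me3 replicate 2, with 10.6% (9.26 to 12.1) against 13.5% (12.5 to 14.6).

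For the other 8 libraries the intervals overlapped. In A673, H3K27me3 lay in the surroundings of 8.96% and 10.51% of unmarked sites, against 9.61% and 10.02% of marked sites. In CHLA10 the libraries gave 10.03% and 10.1% of unmarked sites, against 9.63% and 9.90% of marked sites. For H3K4me3 the other 3 libraries gave 9.87% to 12.7% of unmarked sites, against 12.2% to 14.8% of marked sites. CHLA10 H3K4me1 replicate 2 gave 15.7% of unmarked sites, against 17.2% of marked sites. Both classes were set by peaks of the same mark lists over the sites, so these shares are a description. Neighbouring sites can share a mark peak, so sites are not independent. Whether the intervals overlap is therefore no test.

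**Figure D3:**
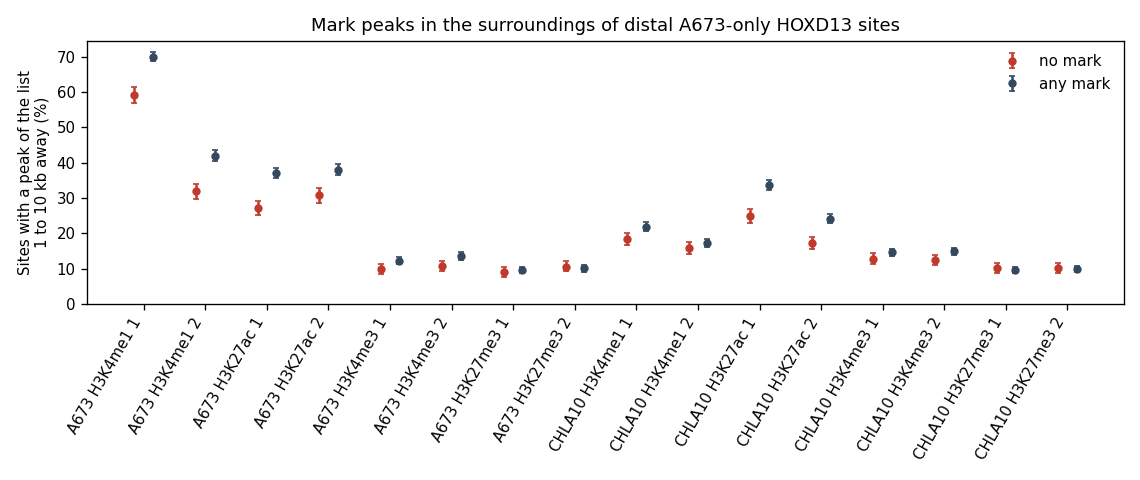
Share of distal A673-only HOXD13 sites (%) with a peak of each mark list over 1 to 10 kb away, for unmarked sites (left point of each pair) and marked sites (right point), with exact 95% intervals. Unmarked sites are lower, with intervals that do not overlap, for H3K27ac in all 4 libraries, for H3K4me1 in both A673 libraries and CHLA10 replicate 1, and for H3K4me3 in A673 replicate 2, while H3K27me3 lies near 10% in both classes.

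The 3 groups of unmarked sites by distance to a mark had like enrichment and unlike positions. Median fold enrichment was 8.98 within 1 kb, 9.91 over 1 to 10 kb and 9.75 over 10 kb from a mark peak. The median length was 182, 199 and 203 bp in the same order. Sites over 10 kb from a mark lay inside a protein-coding gene in 33.5% (26.6 to 41.0), against 47.1% (43.6 to 50.6) and 45.7% (42.4 to 49.02) in the middle and near groups. They lay at a median of 143 kb from a gene boundary, against 53.4 and 66.5 kb. Another A673 HOXD13 peak lay within 10 kb at 4.55% of them (1.98 to 8.76), against 14.6% and 21.8%.

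Unmarked sites lay in gene-poor stretches more often than marked ones. The nearest protein-coding gene boundary was 63.1 kb away at the median (quartiles 21.8 and 198 kb; exact 95% interval of the median 58.3 to 69.4), against 52.1 kb at marked sites (18.1 and 135 kb; 49.7 to 55.2). Inside a protein-coding gene lay 846 unmarked sites (45.1%, 42.9 to 47.4) and 2263 marked sites (51.8%, 50.3 to 53.3). The marked classes differed. The median distance was 61.0 kb with H3K4me1 alone and 46.4 kb with A673 H3K27ac. It was 52.7 kb with H3K27ac in CHLA10 but not in A673, and 47.8 kb with other marks. In the same order, 49.9%, 56.3%, 50.6% and 46.0% lay inside a protein-coding gene. Peaks with H3K4me1 alone were thus close to unmarked sites in distance, and those with other marks in the share inside genes. Outside every annotated gene lay 39.9% of unmarked sites (37.7 to 42.2) and 33.2% of marked sites (31.8 to 34.7). The rest lay inside other genes only, 14.94% of unmarked and 15.005% of marked sites. Over 500 kb from a boundary were 182 unmarked sites (9.71%, 8.41 to 11.1) and 191 marked sites (4.37%, 3.78 to 5.02).

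The share without a mark changed with distance mainly at its far end. It was between 26.5% and 31.5% in the 4 classes from 1 to 500 kb and 48.8% (43.6 to 54.0) over 500 kb. Among sites between genes, the gap between the neighbouring protein-coding genes had a median of 562 kb around unmarked sites (n = 1026), against 379 kb around marked sites (n = 2107). Gaps of over 1 Mb held 36.7% (33.8 to 39.8) of the first and 24.7% (22.9 to 26.6) of the second.

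**Figure D4:**
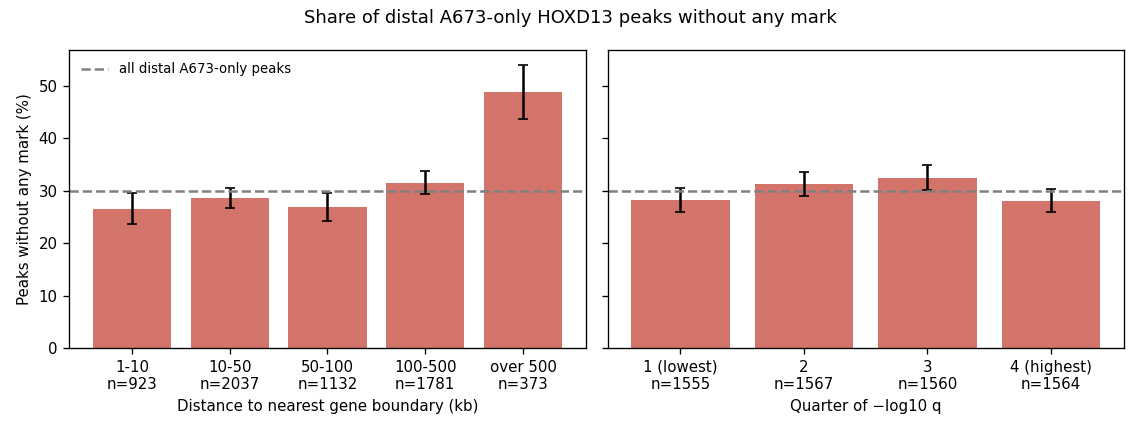
Share of distal A673-only HOXD13 peaks without any mark (%), by distance to the nearest gene boundary (left) and in 4 groups by −log10 q (right), with exact 95% intervals and the share over all such peaks as a dashed line (30.0%). The bar over 500 kb stands at 48.8%, and the 4 groups lie between 28.1% and 32.4%.

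A few deserts held many unmarked sites, named here after their counts were seen. The 3.45 Mb between IFTAP and LRRC4C on chromosome 11 held 18 unmarked and 15 marked sites. LRRC4C encodes a synaptic adhesion protein. The 1.48 Mb before ANKRD30A on chromosome 10 held 9 and 5. Between OTOL1 and SI on chromosome 3 were 8 and 4, and between MEF2C, a transcription factor gene of muscle and neurons, and CETN3 on chromosome 5 were 7 and 3. The 3.69 Mb after STIM2 on chromosome 4 held 6 unmarked sites and 0 marked ones.

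Unmarked sites stood alone more often than marked ones. The nearest other A673 HOXD13 peak was 91.1 kb away at the median, against 55.6 kb at marked sites. It lay within 10 kb at 17.1% of unmarked sites (15.4 to 18.9), against 25.2% of marked sites (23.9 to 26.5). Where there was such a neighbour, it was another unmarked distal A673-only site at 139 of 320 unmarked sites (43.4%), against 159 of 1103 marked sites (14.4%). Neighbours shared with CHLA10 (20 and 92) or near a gene boundary (2 and 21) were not split by mark. Another A673 HOXD13 peak lay within 1 kb at 7.42% of all unmarked sites and 13.3% of all marked sites. Peaks so close can lie under, or outside, the same mark peak. Both classes were also set by the mark lists, so the shares by neighbour are a description. When unmarked sites within 20 kb of each other were joined, 1682 stayed single and 192 fell into 93 groups. The largest group had 4 sites over 14.3 kb on chromosome 10, with ANKRD30A as the nearest gene and −log10 q from 4.81 to 143. Groups of 3 had DUSP6, a phosphatase gene of the MAP kinase pathway, SLCO5A1, KLF6 and LRBA as the nearest gene, at any distance. The first and last sites of the DUSP6 group lay 202 and 184 kb from that gene.

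CHLA10 HOXD13 peaks were also farther from unmarked sites. The nearest lay at a median of 462 kb, against 399 kb at marked sites. Within 100 kb there was one at 17.0% of unmarked sites (15.3 to 18.7), against 23.1% of marked sites (21.9 to 24.4). Within 1 kb there was one at 14 unmarked sites. The closest were 4 bp away at a site whose nearest gene was EFNA5, an ephrin ligand gene, and 7 bp at a site near SGK1, a kinase gene.

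The share without a mark was 30.0% among distal A673-only peaks, against 22.4% (18.8 to 26.3) among the 496 distal A673 peaks shared with CHLA10, where 111 had none. Among distal CHLA10-only peaks it was 25.1% (22.97 to 27.3), or 391 of 1557. An overlap of 1 bp counted as a mark, and the shares were not adjusted for peak length. The median length of all distal A673-only peaks was 191 bp. It was 192 and 237 bp for unmarked and marked shared peaks, and 343 and 355.5 bp for unmarked and marked CHLA10-only peaks. The median fold enrichment was 9.31 at A673-only, 9.25 at shared and 9.26 at CHLA10-only unmarked sites, the last on the scale of another library. Inside a protein-coding gene lay 34.5% (29.8 to 39.5) of the CHLA10-only unmarked sites, against 49.3% (46.4 to 52.2) of the marked CHLA10-only peaks. Among shared peaks it was 38.7% (29.6 to 48.5) and 54.8% (49.7 to 59.9). In all 3 sets the unmarked sites were thus less often inside genes than the marked ones. Without any A673 mark were 2574 distal A673-only peaks, and CHLA10 lists marked 700 of them (27.2%, 25.5 to 29.0).

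Genes were described by the nearest gene boundary within 100 kb. Of 19974 protein-coding genes, 1013 (5.07%) were nearest to an unmarked site, with 1131 sites, and 743 sites had no boundary so close. Of the 1013 genes, 912 had 1 site, 87 had 2 and 14 had 3 or more. A marked A673-only site was assigned to 2155 genes (10.8%). The 323 genes with both kinds were 31.9% of the first set and 14.99% of the second.

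SPRY2, which encodes an inhibitor of receptor tyrosine kinase signalling, SPMIP2 and FAM3C, a gene of a secreted cytokine-like protein, had 4 unmarked sites each. The 4 SPRY2 sites lay 1.009 to 99.96 kb from the gene on chromosome 13, outside it, with −log10 q from 9.73 to 28.1, and no marked site was assigned to SPRY2. At SPMIP2 all 4 lay inside the gene, and at FAM3C 2 did. PARG, the poly(ADP-ribose) glycohydrolase gene, and PLCB1, a phospholipase C gene, held 3 sites each inside the gene, with the highest −log10 q at 55.8 and 57.9. Genes holding an unmarked site were long, with a median of 186 kb (n = 721), against 157 kb for genes holding a marked site (n = 1507) and 24.2 kb for all protein-coding genes. The counts by gene below were not adjusted for gene length or for the gaps around genes.

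Of the gene lists, those of axon guidance, cadherins, potassium channels and HOX partners had the highest shares assigned an unmarked site, all read beside 5.07% of all genes. A gene was assigned a site where its boundary was the nearest within 100 kb, and it held a site where the site lay inside it. Of all protein-coding genes, 3.61% held an unmarked site and 7.54% a marked one. Among 27 axon guidance genes, 8 were assigned an unmarked site (29.6%) and 10 a marked site (37.0%). More of them held one, 13 for unmarked sites (48.1%) and 18 for marked sites (66.7%). SEMA3A, a repulsive ligand gene, was assigned 2 (highest −log10 q 31.2) and held 5. UNC5C, a netrin receptor gene, was assigned 3 (highest 24.3), and the ephrin receptor genes EPHA5 (24.3) and EPHA4 (22.3) 1 each. The genes that held a site but were assigned none are named after their values were seen. They were ROBO1 (28.5), ROBO2 (20.3), DCC (27.3), EFNA5 (26.5), SEMA6D (14.2) and UNC5D (10.2), which encode guidance receptors or ligands, with the strongest site of each over 100 kb from any boundary. Of 26 cadherin genes, 6 were assigned an unmarked site (23.1%) and 10 a marked one (38.5%), while 6 held an unmarked site and 6 a marked one. After PCDH18 came FAT4 (−log10 q 26.4), PCDH17 (25.9) and CDH11, a cadherin gene of mesenchymal cells, with 3 sites (highest 24.3).

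Of 9 HOX partner genes, 3 were assigned an unmarked site (33.3%) and 2 a marked one (22.2%), while 3 held an unmarked site and 2 a marked one. They included MEIS3 (−log10 q 32.9, fold enrichment 18.0) and PKNOX2 (12.2, 7.77), which encode homeodomain proteins that bind DNA with HOX proteins. Both sites lay inside the gene, at 8.15 and 67.6 kb from its boundary, and no marked site was assigned to either gene. Of 19 potassium channel genes, 5 were assigned an unmarked site (26.3%) and 5 a marked one, while 2 held an unmarked site and 6 a marked one. KCNH5 (22.8), KCNK2 (14.5), KCNQ5 (12.7) and KCNT2 (9.47) led by −log10 q. Of 25 glutamate and GABA receptor genes, 3 were assigned an unmarked site (12%) and 7 a marked one (28.0%), while 4 held an unmarked site and 10 a marked one. Those assigned one were GRIK1 (16.4), GRM7 (16.4) and GABRG1 (8.31).

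Of 28 genes repressed by EWS-FLI1 or of mesenchymal cells, 5 were assigned an unmarked site (17.9%) and 9 a marked site (32.1%), while 3 held an unmarked site and 5 a marked one. FBN1, a microfibril gene, held 2 unmarked sites (highest −log10 q 57.9, fold enrichment 28.1), and a CHLA10 H3K4me1 peak lay 0.132 kb from the stronger. INHBA, an activin subunit gene, had one 6.01 kb away (28.5), CALD1, a gene of an actin-binding protein, held one (27.9), and TNC, the tenascin C gene, had one 7.17 kb away (12.2). Of 25 genes activated by EWS-FLI1, 3 were assigned an unmarked site (12%) and 5 a marked one (20.0%), while 3 held an unmarked site and 3 a marked one. PRKCB, a protein kinase C gene, held 2 (highest 33.2), and JAK1, a cytokine receptor kinase gene (9.52), and XG, a blood group antigen gene (5.83), held 1 each.

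Of 24 TGF-beta and BMP genes, 2 were assigned an unmarked site (8.33%) and 8 a marked one (33.3%), while 2 held an unmarked site and 5 a marked one. BMPR2 (20.6) and ACVR1 (2.17), both receptor genes, were those assigned one. Of 25 WNT and R-spondin genes, 2 were assigned an unmarked site (8%) and 8 a marked one (32.0%), while 1 held an unmarked site and 6 a marked one. RSPO2, which encodes a ligand that strengthens WNT signalling, held a site with a −log10 q of 63.5 and a fold enrichment of 29.7, and FZD1, a WNT receptor gene, had one 54.6 kb away (21.6). Of 29 housekeeping genes, 0 were assigned an unmarked site and 1 a marked one (3.45%), and 0 held a site of either kind. Housekeeping genes were short, with a median of 13.9 kb, while the medians of the axon guidance, potassium channel and receptor lists were 369, 383 and 403 kb. Those of the cadherin and HOX partner lists were 179 and 139 kb. The medians of the EWS-FLI1, WNT and TGF-beta lists lay between 35.5 and 77.2 kb.

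**Figure D5:**
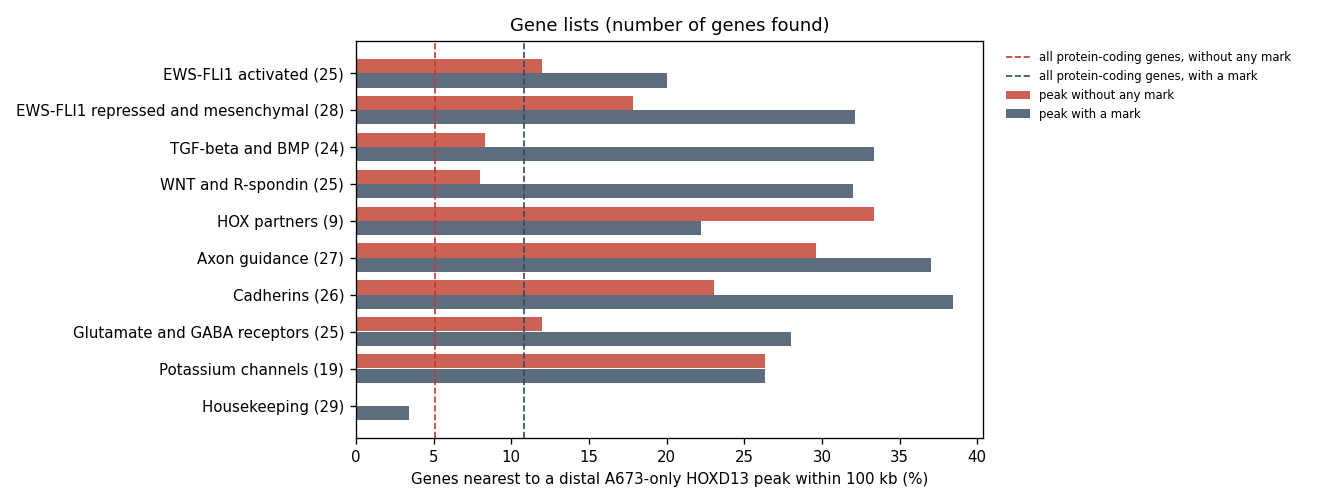
Share of each gene list (%) nearest, within 100 kb, to an unmarked distal A673-only HOXD13 peak (upper bar) and to a marked one (lower bar), with the shares over all protein-coding genes as dashed lines (5.07% and 10.8%). HOX partners are the one list with a higher upper bar, at 3 of 9 genes against 2, and housekeeping genes have no upper bar.

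Sites within 500 kb of HOX clusters and HOX partner genes were too few to set against the 30.0% of all distal A673-only peaks without a mark. HOXB and HOXC had 0 unmarked sites, against 5 and 8 marked distal A673-only sites. HOXA had no A673 HOXD13 peak of any kind in this window. HOXD had 2 unmarked sites, against 7 marked sites. One lay 353 kb from the HOXD genes, nearest to LNPK (chr2:175734625-175734836, −log10 q 12.7, fold enrichment 9.01). The other lay 499 kb away, nearest to MTX2 (chr2:176689565-176689713, 5.55 and 3.87). MEIS1 had 1 unmarked site, 302 kb away (−log10 q 5.05), against 7 marked sites, and PBX3 had 0, against 3 marked sites. MEIS2 had no A673 HOXD13 peak of any kind.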

How the data were processed

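CUT&RUN peak lists of 18 libraries were analysed; the 4 IgG libraries were not analysed here. Each used 250000 to 500000 cells, and reads were 25 bp at each end, per the labels. Per the submitters' processing notes, the tools were Bowtie2, MACS2, SEACR 1.2 and bedtools and the build hg38. The role of each tool is not given in the sources used here. The deposited lists give, per peak, the authors' fold enrichment (a ratio over the caller's background), −log10 p and −log10 q values, and a score, which equals the integer part of 10 times the −log10 q (within 1 in H3K27me3). Peaks were called per library, as narrow peaks against IgG or, for H3K27me3, as broad peaks with no control, per the peak names in the deposited files. Peak numbers have gaps. The A673 HOXD13 list keeps 9.94% of its highest number and the CHLA10 HOXD13 list keeps 1.00%. The criterion is not given in the sources used here. The A673-only class and the distances to CHLA10 HOXD13 peaks rest on the CHLA10 list as deposited.

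Overlaps (at least 1 bp), distances, medians and exact 95% intervals were computed in Python 3.11.15 with SciPy 1.17.1. Genes came from RefSeq (GRCh38.p14, the build hg38), and boundaries are both gene ends. Interval functions were tested on simulated data against brute force (100% equal). No genome was used here, so sites were searched for motifs only in promoter windows. Distance classes take the nearest edge. The members, gene lists (237 genes, 236 found) and named genes were chosen with earlier results of these data known. Named were the 15 sites highest by −log10 q, the 5 genes with most sites, up to 4 genes per list, sites at the limits, and sites within 500 kb of HOX clusters and HOX partner genes; 1 gene these rules would name is not reported here. Whether libraries came from separate cultures is not stated.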

Additional observations from a re-analysis of the deposited data

How the results depend on the processing

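Of 77 recomputed values, 68 stayed within 1.5 times the reported count or within the exact 95% interval of the reported median or share. Counting a mark peak within 1 kb as a mark left 983 unmarked sites near 558 genes, with a median fold enrichment of 9.91 and a median length of 200 bp. The upper 50% of the list by −log10 q held 943 near 550 genes, with a median fold enrichment of 13.5 and a median −log10 q of 22.3, since the weaker peaks were left out. With all 4 H3K4me1 lists left out, an alternative chosen after seeing the data, 3144 sites had no mark. With 1 of the 16 mark libraries left out in turn, also chosen after seeing the data, there were 1878 to 2270, highest without A673 H3K4me1 replicate 1. Without replicate 1 or without replicate 2 of every mark there were 2700 and 2380 sites, near 1388 and 1248 genes. Under all 8 other choices of the sites, unmarked sites were less often inside genes and farther from gene boundaries than marked ones. The median fold enrichment was higher at unmarked sites in 7 of them and 9.185 against 9.186 with A673 mark lists only. The alternatives on motifs were not run, since the sites' sequences were not used here outside promoter windows. No paired analysis was possible because the comparisons are between peaks of 1 HOXD13 library and come from no test. Read depth is unknown. A mark below the calling threshold, or with its peak left out of the lists, cannot be told apart from none.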

Other observations

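Chromosomes are named here after their values were seen. The share of distal A673-only HOXD13 peaks without a mark, 30.0% over all of them, varied by chromosome. It was highest on chromosome 4, with 135 of 341 peaks (39.6%, exact 95% interval 34.4 to 45), and lowest on chromosome 17, with 25 of 131 (19.1%, 12.7 to 26.9). Chromosomes 13 (37.7%, 30.7 to 45.2), 5 (35.8%, 31.3 to 40.5) and 14 (36.1%, 29.5 to 42.99), 16 (37.6%, 29.6 to 46.1) and 19 (36.8%, 24.4 to 50.7) came near the upper end, and chromosomes 9 (23.8%, 18.5 to 29.8) and 1 (25.8%, 22.1 to 29.7) near the lower. The intervals of chromosomes 14, 16 and 19 include 30.0%.

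Unmarked sites lay within 10 kb of a microRNA hairpin in 13 cases (0.694%, 0.370 to 1.18), against 46 marked sites (1.05%, 0.771 to 1.40). The closest were 117 bp from MIR4494 on chromosome 12 (−log10 q 23.7), 3.24 kb from MIR423 on chromosome 17 (28.5) and 3.69 kb from MIR1184-1 on chromosome X (33.6).

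Among the 1874 unmarked sites there were 708 distinct −log10 q values, and 73 sites shared the commonest, 12.7, so many places in an order by −log10 q are ties.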
